A study of Mus musculus with 10 samples.

Results

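The B-lymphoid priming genes are 9 genes that hematopoietic progenitors switch on as they turn toward the B cell fate: Ebf1 and Pax5, Vpreb1 and Igll1, Cd79a and Cd79b, Rag1 and Dntt, and Il7r. They were chosen by name, with earlier results of these data known. They were read in hematopoietic stem cells (HSCs) of 18-month-old C57BL/6J mice. Of the 9 genes, 8 had a probe set of their own on the array, out of 22180 genes with one. Rag1 shared its only probe set with Iftap and was therefore not analysed here. The study compared 5 AHR-KO arrays, from mice with a knockout of Ahr (the aryl hydrocarbon receptor), with 5 WT arrays, from mice of the same strain and age. The methods of the study name its AHR-KO line as AHR tm3.1Bra, without naming these arrays. Global AHR-KO mice carry the knockout in all tissues, so that the hematopoietic cells and their marrow environment both lack the receptor. Lineage-positive cells were removed from the marrow and SLAM+ cells were then sorted, which the methods of the study define by presence of CD150 and absence of CD48. RNA was amplified and hybridized to Affymetrix Mouse Gene 2.0 ST arrays, and levels are given here as log2(signal + 16).

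B cells arise from HSCs through multipotent and lymphoid-primed progenitors. Il7r, the receptor chain for interleukin 7, carries a survival signal for these progenitors, and the transcription factors Ebf1 and Pax5 set and hold the B cell program. The recombinase made of Rag1 and Rag2 then cuts the antibody gene segments, Dntt adds bases at their joints, and the new heavy chain is tested at the cell surface in the pre-B cell receptor, where Vpreb1 and Igll1 stand in for a light chain and Cd79a and Cd79b pass the signal on. Low levels of some lymphoid transcripts in multipotent cells are known as lymphoid priming.

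Ahr does not check the labels on these arrays: its probe set read 5.97 ± 0.52 in AHR-KO arrays and 5.74 ± 0.74 in WT arrays (SD, n = 5 each), and which part of the gene the knockout allele lacks is not given in the sources used here. Kit, Hlf and the other HSC identity genes were present, with 19 of 20 above background. Genes that the sort should remove were present too: Cd48 had a level of 6.45 to 9.44 in AHR-KO arrays and 7.12 to 8.82 in WT arrays. Cd34 had a level of 10.09 to 10.85 in AHR-KO arrays and 10.26 to 11.06 in WT arrays. The abstract of the study gives its sorted cells as negative for CD34 as well. On the first principal component, which held 30.6% of the variance, 2 AHR-KO arrays (replicates 1 and 2) and 2 WT arrays (replicates 1 and 5) stood apart from the other 6. In these 4 arrays Cd48 lay between 6.45 and 7.93, against 8.48 to 9.44 in the other 6. In bulk RNA of this kind, fewer cells of a type and less RNA per cell cannot be told apart.

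The 8 measured genes fell into a group of 3 above background and a group of 5 at background. Background was set from 1483 genes of the olfactory, vomeronasal, taste receptor and keratin-associated families, which blood cells are not known to use. Their median level was 4.42, and the limit was placed at their 95th percentile, 5.50. Of all genes, 54.8% had a higher mean than this limit. Cd79b (mean of the 10 arrays 7.40), Dntt (6.95) and Cd79a (6.56) were above it. Pax5 (5.34), Il7r (5.18), Vpreb1 (5.04), Ebf1 (4.98) and Igll1 (4.96) were at background, where a level cannot be told from that of an unused gene. Only 2 of the 1483 genes had a higher mean than Cd79b and 12 a higher mean than Cd79a, but 225 exceeded Igll1. The division rests on the chosen limit: with the limit at the highest of these genes (11.40) all 8 were at background, and with it at their median none was.

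**Figure D1:**
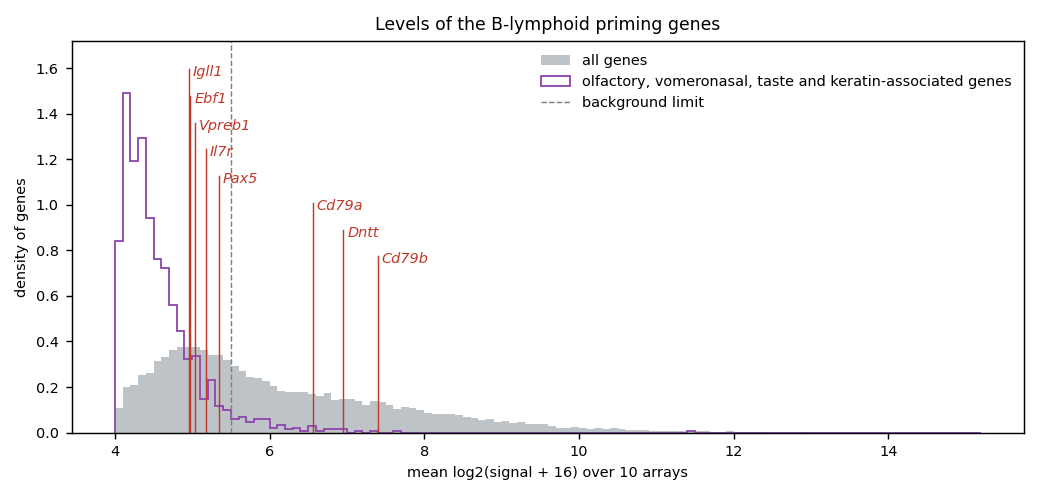
Mean level over the 10 arrays (x axis, log2(signal + 16)) against the density of genes (y axis), for all 22180 genes (gray) and the 1483 olfactory, vomeronasal, taste and keratin-associated genes (purple outline), with a red line at each B-lymphoid gene; the height of a red line has no meaning. The red lines of 5 genes lie left of the dashed background limit at 5.50 and Cd79a, Dntt and Cd79b lie right of it.

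None of the 8 measured genes differed between AHR-KO and WT arrays at the study threshold, against 0.523% of all genes (116 of 22180). This threshold takes the 1.5-fold change and the p of 0.05 that the methods of the study name. The methods also mention an adjustment for multiple comparisons, so that counting with an unadjusted p is a choice made here. None passed an adjusted p of 0.05 in limma, nor did any of all genes (0% of 22180; 829 had an unadjusted p under 0.05), and none of the 8 had an unadjusted p under 0.05. In none of them did the 5 AHR-KO values lie wholly on one side of the 5 WT values, against 0.681% of all genes. Of the 8, 5 had a higher mean in AHR-KO and 3 a lower one, and the median log2 fold change was 0.08, against 0.004 over all genes. The sign of this median rests on single arrays: it was -0.07 without AHR-KO replicate 4 and -0.05 without either AHR-KO replicate 5 or WT replicate 5. Their adjusted p lay between 0.998 and 0.999 in limma with Benjamini-Hochberg adjustment over all genes. The number of arrays limits what can be seen.

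**Figure D2:**
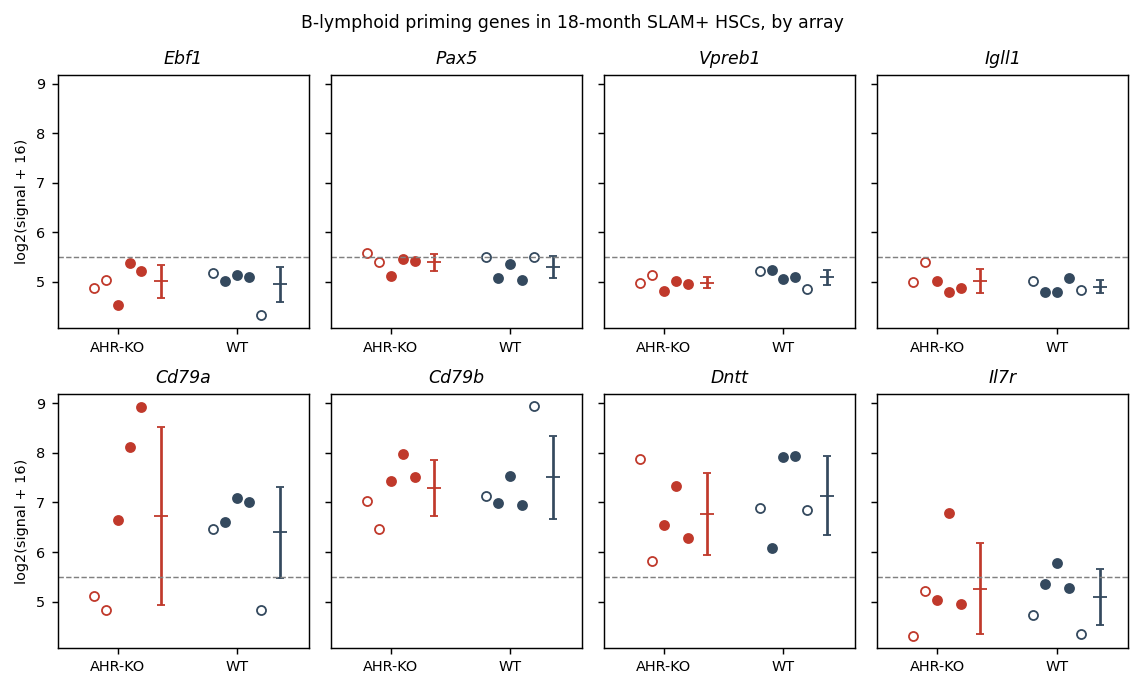
Level of each measured gene in each array (y axis, log2(signal + 16)), AHR-KO left of WT; each point is 1 array, open points are the 4 arrays that stood apart on the first principal component, bars are mean ± SD (n = 5) and the dashed line is the background limit at 5.50. The groups overlap in all 8 genes, and Cd79a spreads from 4.82 to 8.93 in AHR-KO arrays.

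Ebf1 and Pax5, the transcription factors that commit cells to the B lineage, were at background in both genotypes. Ebf1 had levels of 4.87, 5.04, 4.53, 5.37 and 5.22 in AHR-KO replicates 1 to 5, against 5.17, 5.02, 5.13, 5.10 and 4.32 in WT replicates 1 to 5. None of the 10 values reached the background limit, and the lowest was WT replicate 5. The log2 fold change of Ebf1 was 0.06 (standard error 0.20), which turned to -0.03 without AHR-KO replicate 4 and to -0.10 without WT replicate 5. Pax5 had levels of 5.59, 5.39, 5.11, 5.45 and 5.42 in AHR-KO arrays and 5.50, 5.07, 5.36, 5.03 and 5.49 in WT arrays. Pax5 passed the limit in 1 AHR-KO and 1 WT array, and by less than 0.1, with a log2 fold change of 0.10 (standard error 0.14).

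The surrogate light chain genes had the lowest SD of the 8 over the 10 arrays, 0.14 for Vpreb1 and 0.19 for Igll1, although Pax5 had a narrower range than Igll1. Vpreb1 had levels of 4.98, 5.13, 4.82, 5.02 and 4.96 in AHR-KO arrays, against 5.22, 5.23, 5.05, 5.09 and 4.86 in WT arrays. Igll1, which encodes the lambda 5 chain that pairs with the Vpreb1 protein, had levels of 4.99, 5.40, 5.01, 4.80 and 4.87 in AHR-KO arrays, against 5.01, 4.79, 4.79, 5.08 and 4.83 in WT arrays. No array reached the background limit for either gene. The log2 fold change was -0.11 for Vpreb1 (standard error 0.11, exact permutation p = 0.254, two-sided) and 0.11 for Igll1 (standard error 0.13, exact permutation p = 0.444). Vpreb2, a close copy of Vpreb1 whose RNA the probes may not separate fully, averaged 6.50 in AHR-KO arrays and 6.36 in WT arrays and was above background, whereas Vpreb3 was at background.

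Cd79a, the signal chain Ig-alpha, had the widest spread of the 8 genes. Its levels were 5.12, 4.82, 6.65, 8.12 and 8.93 in AHR-KO replicates 1 to 5, against 6.46, 6.61, 7.09, 7.00 and 4.82 in WT replicates 1 to 5. AHR-KO arrays thus held the 2 highest values, AHR-KO replicate 2 and WT replicate 5 were level at the bottom, and 2 AHR-KO arrays and 1 WT array were under the background limit. The highest array was 17.3-fold above the lowest on the scale of signal + 16, and the SD over the 10 arrays, 1.36, exceeded that of 99.7% of the 12149 genes above background. Genotype held 1.67% of this variance. The mean was 6.73 ± 1.80 in AHR-KO arrays and 6.40 ± 0.92 in WT arrays (SD, n = 5 each), a log2 fold change of 0.33 (standard error 0.75, exact permutation p = 0.73). On the scale of linear means, where the highest arrays weigh more, the averages were 170.0 in AHR-KO and 79.7 in WT, a log2 ratio of 1.09. The sign turned without AHR-KO replicate 4 (-0.01), AHR-KO replicate 5 (-0.22) or WT replicate 5 (-0.06).

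The 4 arrays with the lowest Cd79a were the 4 that stood apart on the first principal component, with 4.82 to 6.46, against 6.61 to 8.93 in the other 6. The comparison was therefore also made within each set, a choice made after seeing the data. Within the 6 arrays the log2 fold change of Cd79a was 0.997 (unadjusted p = 0.0623 from limma; 3 AHR-KO against 3 WT), and within the other 4 it was -0.66 (unadjusted p = 0.286; 2 against 2). The directions thus differed between the sets, and this difference was not tested. The division of the arrays was not confined to B-lineage genes. Every one of the 6 arrays read at least 11.29 for Elane, a neutrophil marker, and none of the 4 passed 11.05. For Ctss, a monocyte marker, these bounds were 10.19 and 9.54. The HSC identity genes Vwf and Gata2 went the other way. The 6 arrays peaked at 8.31 and 8.42, while the 4 began at 9.21 and 8.71. Other markers overlapped, among them Cd68 and Kit. These genes were picked after their values were seen.

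Most measured genes of plasma cells, the antibody-secreting end stage of the B lineage, were also highest in the AHR-KO array with the highest Cd79a. Of 8 plasma cell markers measured, 7 had their highest value in AHR-KO replicate 5. The other, Prdm1, had its lowest value of the 10 arrays there (5.72). Of 14 mature B cell markers measured, most of them at background, only 2 had their highest value in AHR-KO replicate 5. Irf4, a transcription factor needed for plasma cells, had levels of 4.65, 4.83, 6.08, 6.13 and 7.44 in AHR-KO arrays and 4.01, 5.74, 7.09, 6.04 and 4.73 in WT arrays. Mzb1, an endoplasmic reticulum protein of antibody-secreting cells, ran from 5.38 to 7.86 in AHR-KO arrays and from 5.38 to 7.56 in WT arrays, where the highest was WT replicate 3. Pou2af1, a B cell coactivator, was also highest in AHR-KO replicate 5 (9.01), with WT replicate 3 next (8.56). Summed over the list, the plasma cell signal was 1136 to 3910 in AHR-KO arrays and 992 to 2772 in WT arrays. WT replicate 3, with high Irf4 and Mzb1, had a Cd79a level of 7.09, the highest of WT, but below AHR-KO replicate 4 (8.12), which had less of both. AHR-KO replicate 5 stood at the end of other lists as well. It had the highest value of 7 of 10 monocyte and macrophage markers (Csf1r 9.08) and of Cd48 (9.44), and the lowest value of 12 of 20 HSC identity genes (Kit 9.03, Hlf 8.93). The part of RNA from plasma cells or other cells in the Cd79a values was not tested, and these genes were singled out after their values were seen.

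**Figure D3:**
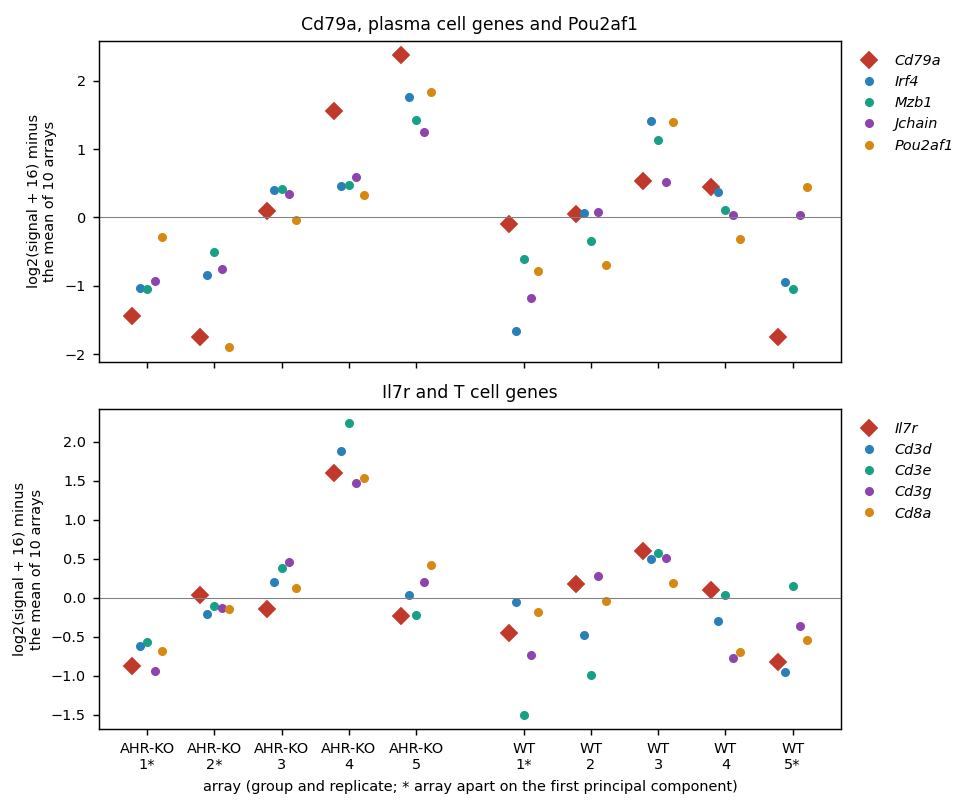
Difference of each gene's level from its own mean over the 10 arrays (y axis, log2(signal + 16)), by array (x axis, AHR-KO left, WT right, the 4 arrays apart on the first principal component starred); diamonds are Cd79a above and Il7r below, circles are the compared genes. Cd79a and the plasma cell genes shown are highest in AHR-KO replicate 5, while Il7r and the T cell genes shown are highest in AHR-KO replicate 4.

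Cd79b, the partner chain Ig-beta, had its highest level in the WT array in which Cd79a was lowest. Its levels were 7.03, 6.47, 7.44, 7.98 and 7.52 in AHR-KO arrays, against 7.14, 6.98, 7.54, 6.94 and 8.95 in WT arrays. All 10 arrays were above background. WT replicate 5 stood out, with 8.95 for Cd79b and 4.82 for Cd79a, while among AHR-KO arrays replicates 4 and 5 had the 2 highest values of both genes. The mean was 7.29 ± 0.57 in AHR-KO and 7.51 ± 0.84 in WT (SD, n = 5 each), a log2 fold change of -0.22 (standard error 0.38, exact permutation p = 0.651). Without WT replicate 5 it was 0.14. Within the 6 arrays it was 0.50 (unadjusted p = 0.0397 from limma, less than 1.5-fold), and within the other 4, which include WT replicate 5, it was -1.29 (unadjusted p = 0.0911). These within-set values had adjusted p of at least 0.57 in limma.

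Dntt, the terminal transferase that adds untemplated bases to antibody and T cell receptor joints, was above background in all 10 arrays. Its levels were 7.87, 5.82, 6.55, 7.34 and 6.28 in AHR-KO arrays, against 6.89, 6.08, 7.92, 7.94 and 6.84 in WT arrays. The 3 highest arrays came from both genotypes (WT replicates 3 and 4, AHR-KO replicate 1), and so did the lowest pair. The mean was 6.77 ± 0.83 in AHR-KO and 7.13 ± 0.79 in WT (SD, n = 5 each). The log2 fold change, -0.36, was the most negative of the 8 (standard error 0.43, exact permutation p = 0.476), and its 95% confidence interval ran from -1.30 to 0.58. It kept its sign without each array in turn, between -0.63 and -0.12. Rag2, the partner of Rag1, was at background, with a log2 fold change of 0.14 (standard error 0.18).

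Il7r was at background by its mean, but not in every array. Its levels were 4.30, 5.22, 5.04, 6.78 and 4.95 in AHR-KO arrays, against 4.73, 5.35, 5.78, 5.28 and 4.35 in WT arrays. Only AHR-KO replicate 4 and WT replicate 3 passed the limit. The log2 fold change was 0.16 (standard error 0.41, exact permutation p = 0.786), it turned to -0.22 without AHR-KO replicate 4 and to -0.03 without WT replicate 5, and from linear means (30.1 in AHR-KO, 20.3 in WT) it was 0.57. T cells also carry Il7r, and AHR-KO replicate 4 had the highest value of 8 of the 10 other T cell markers measured. The exceptions were Gata3, at 6.46 there and highest in AHR-KO replicate 1 (7.09), and Cd4, at background, at 4.61 there and highest in AHR-KO replicate 5 (4.84). Cd3e, a chain of the T cell receptor complex, had levels of 4.98, 5.44, 5.92, 7.78 and 5.32 in AHR-KO arrays and 4.04, 4.55, 6.11, 5.58 and 5.69 in WT arrays. Cd3d reached 7.42 and Cd8a 7.07 in AHR-KO replicate 4, against 6.04 for Cd3d and 5.73 for Cd8a in the highest WT array. The summed signal of the T cell list, which includes Il7r, was 354 to 1054 in AHR-KO arrays and 298 to 497 in WT arrays. The same array had the highest value of 7 of 11 neutrophil markers (S100a9 12.04, Lcn2 10.49). The part of RNA from T cells or other cells in the Il7r values was not tested, and Cd3d, Cd3e and Cd8a were singled out after their values were seen.

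**Figure D4:**
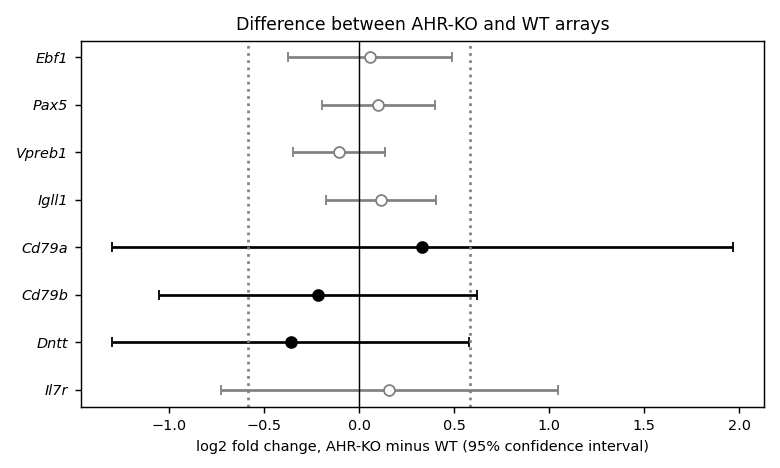
Log2 fold change of each measured gene, AHR-KO minus WT (x axis), with its 95% confidence interval from limma (5 arrays per group); filled points are above background, open points at background, and dotted lines mark 1.5-fold in each direction. All 8 intervals include 0, and that of Cd79a, from -1.30 to 1.97, is the widest.

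The intervals show how large a difference could have gone unseen. For Cd79a they allowed AHR-KO to be between 2.47-fold lower and 3.91-fold higher than WT, and for Cd79b between 2.08-fold lower and 1.53-fold higher. Dntt could have been up to 2.46-fold lower. For Il7r the bounds were 1.65-fold lower and 2.06-fold higher. The intervals of Ebf1, Pax5, Vpreb1 and Igll1 lay within 1.5-fold on both sides, but on the scale of signal + 16 the change of a gene at background is understated, so these narrow intervals do not bound a change in RNA.

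The upstream sequences of 4 genes are shown because they span the range of levels, from Cd79a and Dntt above background to Vpreb1 and Igll1, neighbors on chromosome 16, at background. Each is the 250 bases before the annotated start (RefSeq, GRCm38.p6), written 5′ to 3′ on the strand of the gene, with matches to 3 motifs in capitals: CAGGTG, an E-box bound by E proteins, GCGTG, the core bound by AHR with its partner ARNT, and CCCNNGGG, the inner part of the EBF1 palindrome. Both strands were searched.
Cd79a, chr7:24897247-24897496, plus strand: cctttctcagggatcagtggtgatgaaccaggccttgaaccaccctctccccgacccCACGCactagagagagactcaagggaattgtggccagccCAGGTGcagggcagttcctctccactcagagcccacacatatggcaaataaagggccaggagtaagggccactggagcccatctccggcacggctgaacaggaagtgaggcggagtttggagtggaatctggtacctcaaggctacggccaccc
Dntt, chr19:41029025-41029274, plus strand: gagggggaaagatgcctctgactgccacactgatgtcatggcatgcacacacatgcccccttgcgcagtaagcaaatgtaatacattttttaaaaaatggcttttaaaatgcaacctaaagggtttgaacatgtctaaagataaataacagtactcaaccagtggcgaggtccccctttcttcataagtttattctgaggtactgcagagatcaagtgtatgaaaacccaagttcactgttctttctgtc
Vpreb1, chr16:16869256-16869505, minus strand: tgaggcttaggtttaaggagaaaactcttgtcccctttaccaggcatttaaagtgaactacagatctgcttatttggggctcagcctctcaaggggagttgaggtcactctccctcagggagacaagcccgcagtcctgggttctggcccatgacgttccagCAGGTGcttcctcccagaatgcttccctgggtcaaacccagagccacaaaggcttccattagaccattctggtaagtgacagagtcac
Igll1, chr16:16863986-16864235, minus strand: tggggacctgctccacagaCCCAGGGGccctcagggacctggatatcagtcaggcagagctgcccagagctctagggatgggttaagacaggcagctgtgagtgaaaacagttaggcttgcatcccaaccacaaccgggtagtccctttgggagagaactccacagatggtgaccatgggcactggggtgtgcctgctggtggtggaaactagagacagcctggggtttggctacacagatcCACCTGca
Cd79a held 1 E-box and, on the opposite strand, 1 AHR core, Vpreb1 held 1 E-box, Igll1 held 1 E-box on the opposite strand and 1 EBF1 inner palindrome, and the Dntt window held none of the 3. No matches overlapped. Windows were found for 8 of the 9 genes, all but Cd79b. The E-box was in windows of 4 of these genes, the AHR core in 3 and the EBF1 letters in 1, whereas of 32851 windows of this length 17.2% held the E-box, 28.2% the AHR core and 11.8% the EBF1 letters. A match of letters is a description and not a binding site.

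Among other genes of early B lymphopoiesis, again no gene passed the study threshold, against 0.523% of all genes. The 5 lists held 63 further genes with probe sets, of which 51 were above background, 26 had a higher mean in AHR-KO and 37 a lower one, with a median log2 fold change of -0.04. Of 15 other early B-lineage genes measured of 17 listed, 6 were higher and 9 lower. Cd24a, a surface protein of immature B cells and many other cells, averaged 11.38 in AHR-KO and 11.34 in WT, Myb, a transcription factor of progenitors, 10.92 and 10.83, and Sox4, a transcription factor that early B cells need, 9.17 and 9.46. Blnk and Blk, adaptor and kinase of the pre-B receptor, were at background.

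Most of the listed lymphoid transcription factors were above background. All 18 were measured and 17 passed the limit, Id3 (5.54) only just, while Bach2 was at background, with 11 higher and 7 lower in AHR-KO and a median of 0.01. Spi1, which encodes PU.1, averaged 10.23 in AHR-KO and 10.46 in WT, Ikzf1, which encodes Ikaros, 9.16 and 9.26, and Bcl11a 8.95 and 9.03. Spi1 was 9.50 to 10.46 in the 4 arrays that stood apart and 10.53 to 10.69 in the other 6. These 3 factors thus lay above the background limit on every array of both genotypes, while Ebf1 did so on none.

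Of the genes of cytokine receptor signaling, 14 of 18 were measured, and 2 were higher and 12 lower in AHR-KO, with a median of -0.09. Jak1, the kinase that acts with the interleukin 7 receptor, averaged 9.69 in AHR-KO and 9.84 in WT, Bcl2, a survival gene, 9.23 and 9.29, and Cxcr4, the receptor for a marrow chemokine, 8.93 and 9.07. Notch1, a receptor that turns progenitors toward the T cell fate, averaged 6.75 ± 0.38 in AHR-KO and 7.20 ± 0.27 in WT (SD, n = 5 each), a log2 fold change of -0.45 (unadjusted p = 0.0359, adjusted p = 0.998 in limma). Poll, a polymerase that fills gaps in end joining, averaged 6.60 ± 0.13 in AHR-KO and 6.30 ± 0.20 in WT (SD, n = 5 each), a log2 fold change of 0.30 (unadjusted p = 0.0308, adjusted p = 0.998 in limma). These were the 2 of 63 pathway genes with an unadjusted p under 0.05, against 829 of all 22180 genes. Both were named after their values were seen, neither reached 1.5-fold, and the groups overlapped in both.

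Of the genes of recombination and end joining, 12 of 14 were measured, 7 higher and 5 lower, with a median of 0.06. The bending proteins Hmgb2 (11.18 in AHR-KO, 11.07 in WT) and Hmgb1 (11.02 and 10.88), which aid the recombinase, and Xrcc6 (7.63 and 7.31), a subunit of the Ku end-binding complex, had the highest levels. Of the genes of pre-B receptor signaling, 14 of 16 were measured, 4 higher and 10 lower, with a median of -0.02. Ighm, the mu heavy chain gene, averaged 11.85 in AHR-KO and 11.94 in WT and was 11.94 to 12.67 in the 6 arrays, against 10.99 to 11.60 in the 4 that stood apart. Ptpn6, a phosphatase that restrains the receptor, averaged 9.33 in AHR-KO and 9.42 in WT, and Plcg2, an effector of the receptor, 8.68 in both.

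Most markers of mature B cells were at background. Of 14 measured, 9 were below the limit, among them Ms4a1 (CD20), Cd22, Cr2 and Fcer2a, and none passed the study threshold. Besides Ighm, the genes above the limit were Cd37 (8.70 in AHR-KO, 8.96 in WT), Tnfrsf13c (6.64 and 6.28), Fcmr (5.89 and 5.98) and Ciita (5.80 and 5.73). The summed signal of this list, most of it Ighm, was 2764 to 6807 in AHR-KO arrays and 2615 to 7359 in WT arrays. Markers of plasmacytoid dendritic cells, which share some transcripts with early lymphoid cells, summed to 506 to 1893 in AHR-KO and 794 to 1865 in WT. Ly6d, a marker of B-cell-biased progenitors and of these dendritic cells, was highest in WT replicates 3 and 4 (9.14 and 8.16), the 2 arrays with the highest Dntt, while AHR-KO replicate 1, with Dntt at 7.87, had Ly6d at 6.77. Neutrophil markers summed to between 4252 and 29670 in AHR-KO and between 6446 and 16890 in WT. Their part in the values of the B-lymphoid genes was not tested.

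In the other marker lists too, no gene passed the study threshold. Cd34 had the highest level of the genes that the sort should remove. Summed signals were 200 to 347 in AHR-KO and 233 to 318 in WT for NK cells, 2940 to 11380 and 4483 to 9430 for monocytes and macrophages, 1657 to 5597 and 683 to 4371 for erythroid cells, 4800 to 11450 and 7075 to 11230 for HSC identity, and 1574 to 3053 and 1750 to 2967 for the genes that the sort should remove. By direction, 18 of 20 HSC identity genes had a lower mean in AHR-KO (median log2 fold change -0.24) and 9 of 10 monocyte and macrophage markers did (median -0.09), while all 7 erythroid markers (median 0.49) and all 11 T cell markers, Il7r among them (median 0.19), had a higher one. The other lists were mixed, with 10 higher and 4 lower for mature B cells, 5 and 3 for plasma cells, 6 and 3 for plasmacytoid dendritic cells, 5 and 4 for NK cells, 7 and 4 for neutrophils and 3 and 3 for the genes that the sort should remove. Genes of a list share cells and arrays, so these counts are a description. Over the 10 marker lists none of 102 genes passed the study threshold.

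For each B-lymphoid gene above background, the genes with the most similar pattern over the 10 arrays were sought among the 12148 other genes above background. Cd79a was most like Creb1 (Pearson r = 0.961, Spearman rho = 0.952) and Man1c1 (0.953 and 0.915). Cd79b was most like Rbfox3 (0.965 and 0.903) and Spcs3 (0.944 and 0.879), and Dntt was most like Smtn (0.886 and 0.964) and Fam13a (0.886 and 0.939). Without the 2 arrays farthest from the median of the B-lymphoid gene, r was 0.936 and 0.915 for the partners of Cd79a, 0.85 and 0.777 for those of Cd79b and 0.874 and 0.841 for those of Dntt. These are the highest of 12148 correlations over 10 arrays that share a division into sets of 6 and 4, and they are given as a description only.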

How the data were processed

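The values deposited by the authors are linear intensities of 41345 probe sets on 10 arrays, made with Affymetrix Expression Console according to the submitters' processing notes. The methods of the study describe background-subtracted, quantile-normalized IterPLIER signals without naming these arrays, and the version is not given in the sources used here. All arrays had a median of 24.65, and quantile normalization can hide a change in most genes. Arrays give no read depth. Platform annotation gave 23521 probe sets 1 symbol, 1820 several and 16004 none. Where a gene had several probe sets, the brightest on average was kept. Log2(signal + 16), which understates changes of dim genes, was compared with limma 3.58.1 in R 4.3.3 (lmFit, eBayes, Benjamini-Hochberg over 22180 genes) and, for single genes, by exact two-sided permutation over 252 splits. Groups and replicate numbers came from the titles. The methods harvested marrow from each animal separately, but the labels tie no array to an animal, so p-values measure the spread between these samples. The fit was tested on simulated data. The members and lists were chosen with earlier results of these data known. The text names all 9 genes, up to 3 genes of highest level for some of the lists, and the 2 most similar genes. Further genes, such as Rag2, Vpreb2, Bach2 and Ms4a1, were named outside this rule, and not all of them are marked as added. Alternatives changed the pseudocount, normalization, filter, probe sets, variance model, weights, block, arrays and background limit. No authors' comparisons were used.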

Additional observations from a re-analysis of the deposited data

Results flagged for a closer look

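Dixon's test at the 95% level looked for 1 array far from the other 4 within a group of 5. It flagged 6 of 52 gene and group pairs examined. The pairs took the 8 measured genes and further genes of the lists, some of them named after their values were seen. Genes also share the division of the arrays into sets of 6 and 4, so the count is a description and cannot be set against chance. WT replicate 5 accounted for 4 of the 6. It had the lowest WT level of Cd79a, 4.82, against 6.46 to 7.09 in the other WT arrays, and of Ebf1, 4.32, against 5.02 to 5.17. It was also lowest in WT for Flt3, a cytokine receptor of early lymphoid progenitors, at 5.23 against 6.80 to 7.41, and for Ikzf1 at 9.0 against 9.30 to 9.36. AHR-KO replicate 2 was lowest for Ikzf1 in its group, at 8.76 against 9.18 to 9.34. WT replicate 1 was lowest for Jchain, the joining chain of secreted antibodies, at 8.78 against 9.99 to 10.47. All 3 of these arrays were among the 4 that stood apart on the first principal component.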

How the results depend on the processing

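Under 24 alternatives, 3 of them chosen after seeing the data, no B-lymphoid gene passed the study threshold or an adjusted p of 0.05. Dntt kept its direction under all 24, and Igll1 under the 23 that gave it a value (the filter on level left it out). Several alternatives, such as Student's test and the replicate block, cannot change a fold change, so these counts overstate what was tried. Igll1 was only 0.005 within the 6 arrays. The median of the members was -0.07 to 0.14 with single arrays left out and 0.16 with a pseudocount of 1. With array weights, Cd79b turned to 0.14 and Ebf1 to -0.10. Leaving out single arrays moved Cd79a between -0.22 and 0.81, Cd79b between -0.39 and 0.14, Ebf1 between -0.10 and 0.18 and Il7r between -0.22 and 0.40. Within the 6 arrays Cd79b turned to 0.50 and Ebf1 to -0.044, and within the other 4 Cd79a turned to -0.66, Pax5 to -0.002 and Vpreb1 to 0.014. Filtering on level kept only Cd79a, Cd79b and Dntt, whose median was -0.22 in place of 0.08. The number at background was 8 with the limit at the highest of the outside genes and 0 with it at their median, in place of 5. Same-numbered arrays did not clearly deviate together (correlations of -0.20 to 0.35, and 1 of 5 AHR-KO arrays was most like its own number). The arrays that stood apart on the first principal component had partly unlike numbers in AHR-KO and WT. These correlations therefore cannot decide whether the numbers pair mice. Each replicate number holds 1 AHR-KO and 1 WT array, so a replicate block cannot change a fold change or the median of 0.08. Only p could move. With this block 0 of the 8 genes passed either threshold, and 152 of all genes passed the study threshold, against 116. Over all genes that count was 574 with a pseudocount of 1, 16 with 64, 75 with Student's test and 71 with the filter. It was 331 within the 6 arrays, 845 within the other 4, and 99 to 230 with single arrays left out. From linear means it was 429, where only the fold was computed anew and the p of the main fit was kept. The causes were not tested.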
